A study of Homo sapiens with 6 samples.

Results

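The HOX cluster genes encode homeodomain transcription factors, and their transcripts were measured in HEK293T cells with and without transfected miR-128. Members were all genes whose probe annotation reads HOXA, HOXB, HOXC or HOXD followed by a number, with antisense transcripts left out. The rule found 29 genes with 35 probes, among 18665 genes with a probe named for a single gene. They comprised 1 HOXA gene (HOXA2), 10 HOXB, 9 HOXC and 9 HOXD genes, where the RefSeq table lists 11, 10, 9 and 9. The other HOXA genes were not analysed here.

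HOX proteins bind DNA through the homeodomain and assign identity to body segments along the head to tail axis of the embryo. The genes lie in clusters A to D, and their order along the chromosome matches the order in which they are switched on, from the low numbers, active toward the head, to the high numbers, active in the trunk, limbs and urogenital tract. They gain binding specificity from the cofactors PBX, MEIS and PKNOX. Their on or off state is kept by trithorax (MLL) and Polycomb complexes and is set early by retinoic acid. In mouse kidney, the group with number 11 is required for outgrowth of the ureteric bud.

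All 6 samples were HEK293T cells, a human embryonic kidney line with the large T antigen of SV40. The 3 control samples were HEK293T cells, and whether they received an empty plasmid is not stated in the labels. The 3 transfected samples received 4 µg of cloned hsa-miR-128 per well of a 6-well plate, with no time after transfection given. The design text calls the samples biological triplicates, but nothing says that they came from separate cultures, so the p-values measure the spread between these arrays, which may be technical. Replicate numbers follow deposit order and have no meaning beyond naming an array.

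The transfected microRNA is shown first because it is the agent named for the transfected group. Its mature 3p strand is given 5′ to 3′ from RefSeq (GRCh38.p14), where the same sequence stands at chr2:135665446-135665466 (plus strand, MIR128-1) and at chr3:35744527-35744547 (plus strand, MIR128-2). RefSeq also lists a 5p strand for each of these genes, which is not shown here. Capitals mark the seed, bases 2 to 8, which pairs with target messenger RNAs.
hsa-miR-128-3p: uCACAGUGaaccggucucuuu
The array does not measure the mature microRNA, and target sites in the HOX messenger RNAs were not analysed here.

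Of the 29 HOX genes, 12 matched a RefSeq promoter entry of 300 bases around the start of transcription. These were HOXA2, HOXB1, HOXC4, HOXC5, HOXD1, HOXD3, HOXD4, HOXD8, HOXD10, HOXD11, HOXD12 and HOXD13. The entries printed here belong to HOXD11 and HOXC4, the tested genes with the lowest mean log2 differences, and to HOXB1, the only one with a mean above the controls. Capitals mark any match, on either strand, to the TATA box (letters TATAAA), the CCAAT box, the joint motif of HOX with PBX (letters TGATNNAT) or a homeodomain core (letters TTAATTA).
HOXC4, chr12:54016638-54016937, plus strand: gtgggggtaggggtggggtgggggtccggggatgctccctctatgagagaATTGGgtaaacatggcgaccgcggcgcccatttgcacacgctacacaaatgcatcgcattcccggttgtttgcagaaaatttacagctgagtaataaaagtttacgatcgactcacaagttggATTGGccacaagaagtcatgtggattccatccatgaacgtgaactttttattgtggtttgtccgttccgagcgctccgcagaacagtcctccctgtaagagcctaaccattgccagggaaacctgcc
HOXD11, chr2:176107030-176107329, plus strand: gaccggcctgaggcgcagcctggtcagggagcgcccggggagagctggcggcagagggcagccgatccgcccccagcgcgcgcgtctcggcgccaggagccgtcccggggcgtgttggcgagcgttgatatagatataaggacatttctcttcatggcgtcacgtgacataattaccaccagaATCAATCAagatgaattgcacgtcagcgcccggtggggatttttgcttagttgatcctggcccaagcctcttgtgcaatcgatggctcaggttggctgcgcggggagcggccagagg
HOXB1, chr17:48530962-48531261, minus strand: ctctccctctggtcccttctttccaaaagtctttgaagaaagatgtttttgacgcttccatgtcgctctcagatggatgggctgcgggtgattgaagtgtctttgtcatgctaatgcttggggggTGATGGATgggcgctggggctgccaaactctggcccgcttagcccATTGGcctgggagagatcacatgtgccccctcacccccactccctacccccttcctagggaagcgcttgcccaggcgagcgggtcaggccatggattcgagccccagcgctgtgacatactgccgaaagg
The HOXC4 window is also the HOXC5 entry, base for base, and holds 2 CCAAT matches. The HOXD11 window holds 1 match to TGATNNAT, and the HOXB1 window holds 1 match to TGATNNAT and 1 to CCAAT. In mouse, HOX and PBX proteins bind such motifs upstream of Hoxb1, which thereby sustains its own expression. CCAAT was found in 10 of the 12 HOX windows and in 35.7% of 27305 promoter windows of that length. The window shared by HOXC4 and HOXC5 was counted once for each gene. TGATNNAT was found in 3 of 12 (HOXA2, HOXB1 and HOXD11) and in 7.60% of all windows, TATAAA in 1 (HOXD13) and in 12.0%, and TTAATTA in 1 (HOXD3) and in 2.71%. In the 12 windows matches to different motifs did not overlap, and a match describes letters, not a bound site.

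The arrays had a mean raw signal of 408 to 660, and 12995 to 14345 probes were detected, fewest on transfected array 1. Over all tested genes, transfected array 3 correlated with control 3 (Pearson r = 0.979) as closely as with transfected array 2 (0.979), and it stood between the groups. Control 1 stood apart from controls 2 and 3, with r = 0.974 and 0.972 against 0.993 between controls 2 and 3. Of 9 genes taken as markers of the line, 7 were detected on at least 1 array, and the neurofilament gene NEFM and the kidney regulator PAX2 were detected on none. The summed raw signal of those 9 was 21342 to 28218 on the controls and 10444 to 24481 on the transfected arrays. These sums are not normalized, and the mean raw signal over all probes was itself lowest on transfected array 1. Among 12 markers of other cell types, LUM was detected on all 6 arrays. DCN was detected on 3 controls and 1 transfected array, and CD14 on 1 control. PTPRC, CD3E, COL1A2, THY1, PECAM1, CDH5, ALB, DES and MYH7 were detected on none. The summed raw signal of those 12 was 1806 to 2282 on the controls and 1803 to 2092 on the transfected arrays. The part of these markers in the HOX values was not tested.

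A gene was called detected on an array where at least 1 of its probes had a detection p under 0.01, the share of negative control probes at least as bright. By that call 19 of the 29 HOX genes (65.5%) were detected on at least 3 arrays, where 52.5% of all 18665 genes were. In 98 genes of other homeobox families it was 54.1%. Detection on all 6 arrays held for 17 HOX genes, while 4 were detected on 1 or 2 arrays and 6 on none. Per array, 17 to 22 HOX genes were detected, with 19, 22 and 21 on controls 1 to 3 and 17, 19 and 20 on transfected arrays 1 to 3. The share of all genes detected was 53.4%, 52.0% and 52.4% on those controls and 48.4%, 51.0% and 52.3% on those transfected arrays.

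Detected genes reached the far end of HOXC and HOXD, while in HOXB those detected on at least 3 arrays were numbered 1 to 8. In the HOXB cluster on chromosome 17, HOXB1, HOXB2, HOXB4, HOXB5, HOXB7 and HOXB8 were detected on all arrays, while HOXB3, HOXB6 and HOXB9 were detected on none. HOXB13, at the far end of that cluster and best known from prostate, was detected on 2 controls only. In the HOXC cluster on chromosome 12, HOXC4, HOXC6, HOXC8, HOXC9 and HOXC13 were detected on all 6 arrays and HOXC11 on 5, with HOXC5, HOXC10 and HOXC12 on none. In the HOXD cluster on chromosome 2, HOXD1, HOXD3, HOXD8, HOXD10, HOXD12 and HOXD13 were detected on all 6 arrays, HOXD11 on 5, and HOXD4 and HOXD9 on 1 each. HOXA2 of chromosome 7, which patterns the second branchial arch, was detected on 2 controls and on no transfected array. Detected and undetected genes thus alternated within clusters. By position, 6 of 9 genes numbered 1 to 4, 6 of 8 numbered 5 to 8 and 7 of 12 numbered 9 to 13 were detected on at least 3 arrays.

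**Figure D1:**
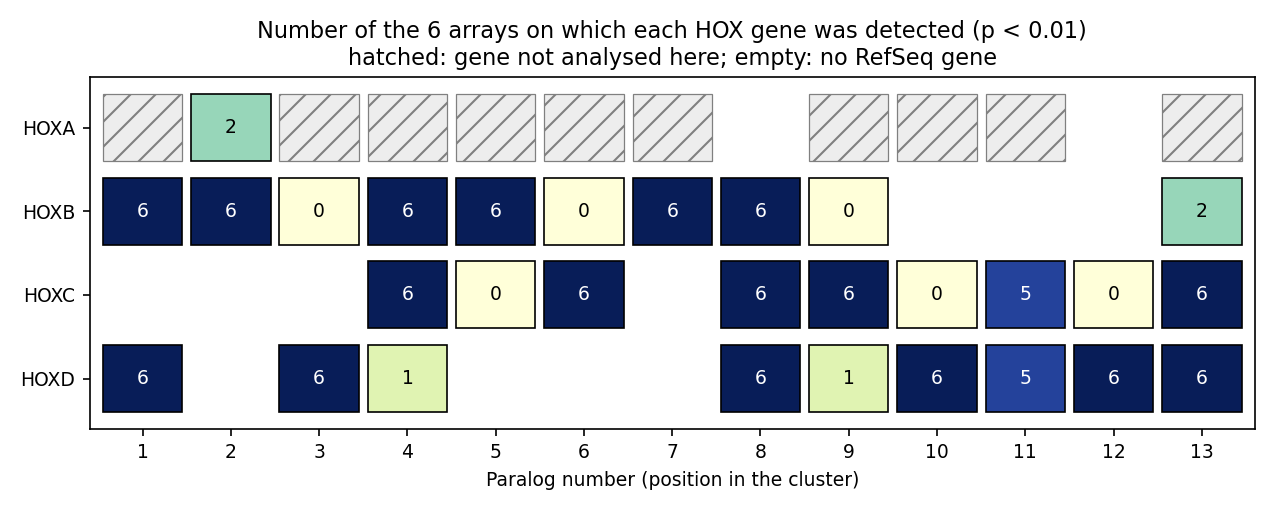
Each box is a HOX gene, placed by cluster (rows) and paralog number (columns), with the number of the 6 arrays on which it was detected. In HOXC and HOXD boxes with 6 reach number 13, in HOXB they end at number 8, and 6 boxes hold 0. Hatched boxes are genes not analysed here.

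A probe near background says only that this probe gave little signal. HOXC6 had 4 probes, of which 1 was bright (normalized log2 intensity 10.13 to 11.24) and 3 were detected on no array, although 2 of those carry the same transcript annotation as the bright one. HOXC4 had 2 probes for different annotated transcripts, 1 bright (8.55 to 10.32) and 1 detected on no array. In the RefSeq table HOXC4, HOXC5 and HOXC6 overlap one another, as do HOXB3 with HOXB4 and HOXD3 with HOXD4. Whether a probe of one also reports transcripts of the other was not analysed here.

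Genes detected on fewer than 3 arrays had values close to the floor in both groups. HOXB13 had log2 intensities of 5.57, 6.10 and 5.88 on the controls and 4.61, 4.72 and 5.59 on the transfected arrays, the last of which lay just above the lowest control. HOXA2, on its better detected probe, had 5.43, 5.94 and 5.92 against 5.06, 5.92 and 5.46, and the groups overlapped. For HOXB13 and HOXA2, each detected on 2 controls and no transfected array, no fold is given, because the detected signals lay too near the detection limit. HOXD9 was detected on 1 control and HOXD4 on 1 transfected array. The 6 genes detected on no array had log2 intensities between 4.43 and 5.71.

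The comparison of transfected with control cells used the 19 HOX genes with a probe detected on at least 3 arrays, and was fitted with limma over all 9797 genes so measured. Of these 19 genes, 18 had a lower mean and 1 a higher mean in transfected cells, with a median log2 fold change of -0.45. Over all genes 52.1% were lower and the median was -0.03. No HOX gene passed the test at a Benjamini-Hochberg adjusted p under 0.05 and neither did any of all genes (0% called); the adjusted p of the HOX genes ran from 0.0502 to 0.865. At an unadjusted p under 0.05 stood 9 HOX genes, all lower, where 16.1% of all genes stood there as lower. In the same 9 genes the 3 transfected arrays lay wholly below the 3 controls, which held for 18.1% of all genes. For a single gene, an exact permutation test of 3 against 3 arrays cannot give a two-sided p below 0.1.

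**Figure D2:**
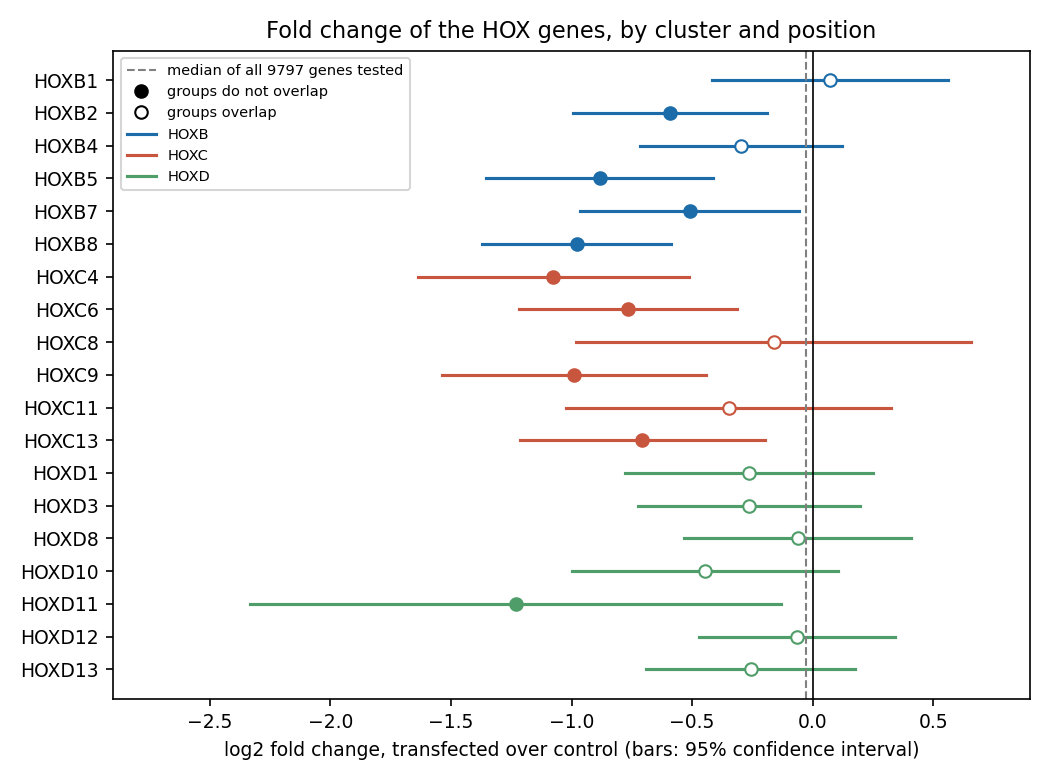
Points are log2 fold changes of transfected over control for the 19 tested HOX genes, ordered by cluster and number, with 95% confidence intervals from limma; filled points mark genes whose groups do not overlap. All points except HOXB1 lie below 0, and the dashed line is the median of all genes, -0.03.

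By cluster, the median log2 fold change was -0.55 over 6 HOXB genes, -0.74 over 6 HOXC genes and -0.27 over 7 HOXD genes. Groups did not overlap, as lower, in 4 of 6 HOXB genes, 4 of 6 HOXC genes and 1 of 7 HOXD genes, where the share of all genes was 18.1%, so that the HOXD count did not exceed it. By position it was -0.28 over 6 genes numbered 1 to 4, -0.64 over 6 numbered 5 to 8 and -0.45 over 7 numbered 9 to 13. Differences between clusters or positions were not tested.

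Among the genes with numbers 1 to 4, which pattern the hindbrain and neck, HOXC4 had the lowest log2 difference. HOXC4, which in B cells activates the gene of the deaminase AID, had log2 intensities of 10.32, 10.14 and 9.70 on the controls and 9.20, 8.55 and 9.17 on the transfected arrays. All transfected arrays lay below all controls, with a mean 2.11-fold lower (log2 difference -1.08 ± 0.25 SE, adjusted p = 0.0593). HOXB2, a regulator of hindbrain segments, stood at 8.46, 8.55 and 8.51 against 7.83, 7.77 and 8.15. Its controls had an SD of 0.04, and its transfected arrays all lay below them, 1.51-fold lower on average (-0.59 ± 0.18, adjusted p = 0.0867).
HOXB1, which specifies the hindbrain segment of the facial nerve, had the one mean above the controls. It had 7.11, 7.47 and 7.37 on the controls and 7.64, 7.49 and 7.02 on the transfected arrays, so that transfected arrays 1 and 2 lay above every control and array 3 below every control. Its log2 difference was 0.07, with a 95% confidence interval of -0.42 to 0.56. Without control 1 or without transfected array 1 it was below 0, at -0.03 and -0.06. With arrays scaled to equal medians instead of equal distributions it was -0.25. That scaling moved the median of all genes from -0.03 to -0.33 and the HOX median from -0.45 to -0.76, and 18 of the 19 HOX genes lay below the median gene under either scaling.

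The other genes of this stretch had overlapping groups. HOXB4, known for expanding blood stem cells, had a log2 difference of -0.30, with an interval of -0.72 to 0.12. HOXD1, which in mouse shapes pain-sensing neurons, and HOXD3 each had -0.27, with intervals of -0.78 to 0.25 and -0.73 to 0.19. With slide section as covariate HOXD1 turned to 0.41. That setting separates section from group poorly, because sections A to C held only controls and D to F only transfected samples. For HOXD1 control 1 was the highest of the 6 arrays (7.53), and for HOXD3 transfected array 3 was the highest (6.86).

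Of the 6 tested genes with numbers 5 to 8, 4 had groups that did not overlap, as lower, against 18.1% of all genes. HOXB8, which in mouse holds myeloid progenitors in an immature state when overexpressed, had the smallest adjusted p among the HOX genes. It had log2 intensities of 9.08, 9.18 and 9.22 on the controls and 8.33, 7.98 and 8.23 on the transfected arrays. The gap between the groups exceeded the spread within either, and the mean was 1.97-fold lower (log2 difference -0.98 ± 0.17 SE, adjusted p = 0.0502). That adjusted p was the lowest of the fit and was shared by 138 genes, among which HOXB8 ranked 65 by unadjusted p. HOXB5, which acts in neural crest cells of the gut, stood at 9.14, 9.29 and 9.10 against 8.0, 8.23 and 8.65, a mean 1.84-fold lower (-0.88 ± 0.21, adjusted p = 0.0600). The transfected arrays of HOXB5 were spread, with array 1 the lowest and array 3 nearest to the controls.

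HOXC6, a developmental regulator often raised in prostate cancer, had 10.98, 11.24 and 11.23 on the controls and 10.33, 10.13 and 10.68 on the transfected arrays. The groups did not overlap and the mean was 1.70-fold lower (-0.77 ± 0.20, adjusted p = 0.0722). HOXB7, reported as overexpressed in breast cancer, had 10.81, 11.31 and 11.14 against 10.36, 10.70 and 10.66. Its transfected array 2 came close to control 1, and the mean was 1.43-fold lower (-0.51 ± 0.20, adjusted p = 0.143). Without transfected array 3, HOXB5, HOXB8 and HOXC6 had an adjusted p under 0.05, as did 4 more HOX genes, all lower, and 9.3% of all genes as lower.

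HOXC8 and HOXD8 had overlapping groups. HOXC8, which in mouse marks motor neurons of the forelimb level, had 8.12, 9.37 and 9.38 on the controls and 8.36, 9.03 and 9.0 on the transfected arrays. Control 1 was the lowest of all 6 arrays and transfected array 1 the next, and the log2 difference was -0.16 (interval -0.98 to 0.66). Leaving out control 2, control 3 or transfected array 1 turned its sign, and without control 1 it was -0.58. HOXD8 had -0.06 (interval -0.53 to 0.41), -0.20 to 0.08 with 1 array left out, and 0.63 with slide section as covariate.

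Of the 7 tested genes with numbers 9 to 13, which act in trunk, limb and urogenital development, all had a mean below the controls and 3 had groups that did not overlap. Of all genes 52.1% were lower and 18.1% did not overlap as lower. HOXC9, which in mouse organizes motor neurons of the thoracic cord, stood at 7.38, 7.98 and 7.77 on the controls against 6.87, 6.33 and 6.96 on the transfected arrays. Its mean was 1.99-fold lower (log2 difference -0.99 ± 0.24 SE, adjusted p = 0.0642). HOXC13, needed for hair and nail keratin genes, had 8.94, 9.36 and 9.33 against 8.34, 8.29 and 8.88. Control 1 and transfected array 3 were close, and the mean was 1.63-fold lower (-0.71 ± 0.22, adjusted p = 0.0969).

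HOXD11, which acts with its paralogs in mouse kidney and forearm, had 7.72, 8.02 and 7.86 on the controls and 5.34, 7.10 and 7.47 on the transfected arrays. Transfected array 1, where HOXD11 was not detected, lay far below the other 2, and all 3 lay below the controls. With 2 of the 3 transfected arrays detected, the signal was at least 1.92-fold lower (log2 difference -1.23 ± 0.48 SE, adjusted p = 0.144). Without transfected array 1 the log2 difference was -0.58. HOXC11, of the same paralog group, was also not detected on transfected array 1. Its values were 6.29, 6.18 and 6.44 against 5.31, 6.00 and 6.54, with transfected array 3 the highest of the 6. The log2 difference was -0.35 (interval -1.02 to 0.32, adjusted p = 0.451), and -0.03 without transfected array 1.

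The remaining posterior genes belong to HOXD. HOXD10, a regulator of limb motor neurons, had 8.71, 9.08 and 8.99 on the controls and 8.96, 8.30 and 8.18 on the transfected arrays. Transfected array 1 lay among the controls and the other 2 below them (log2 difference -0.45, interval -0.998 to 0.10, adjusted p = 0.253). HOXD12 had -0.06 (interval -0.47 to 0.34), -0.15 to 0.02 with 1 array left out, and 0.29 with slide section as covariate. HOXD13, whose mutation causes fused and extra digits, had -0.26 (interval -0.69 to 0.18), and the groups of both genes overlapped.

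**Figure D3:**
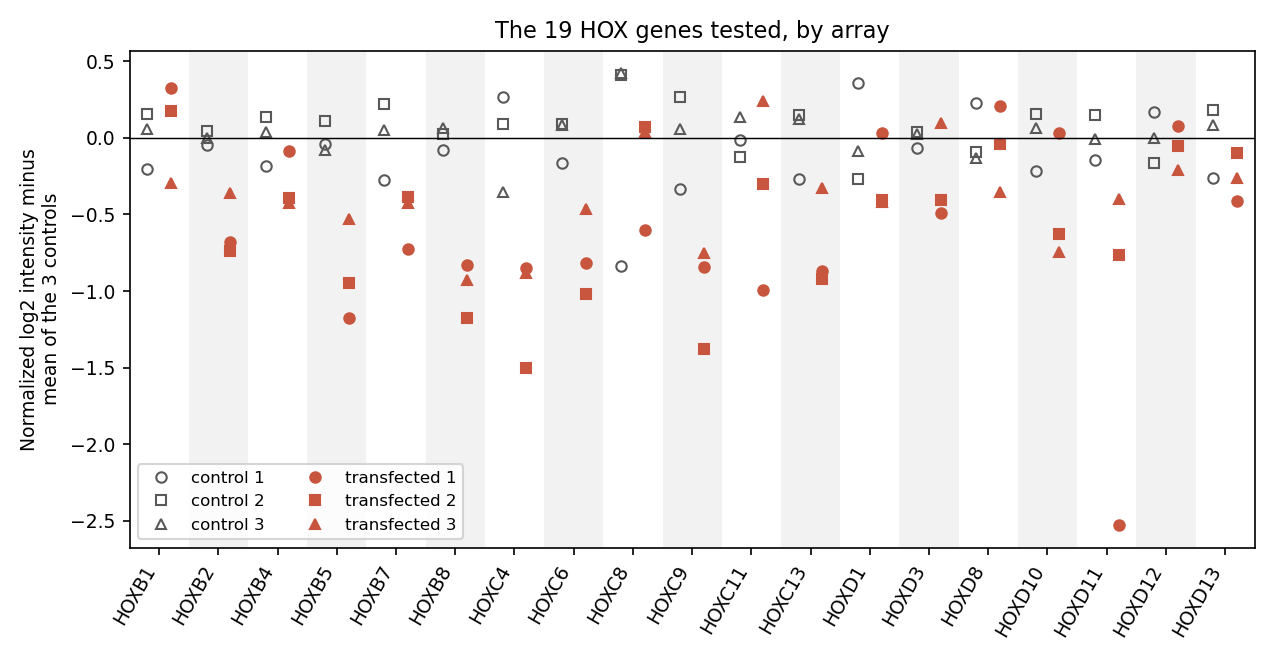
Normalized log2 intensity of each tested HOX gene on every array, minus the mean of its 3 controls; open grey symbols are controls and filled red symbols transfected arrays, with circle, square and triangle for arrays 1 to 3. In 9 genes all red symbols lie below all grey ones, and for HOXC8 the circles of both groups lie below the rest.

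How many HOX genes passed depended on the processing. The count was 4 without background correction, where 3.02% of all genes passed as lower, 1 after cyclic loess (1.77%) and 3 with arrays scaled to equal medians (3.61%). It was 3 among genes detected on all 6 arrays (2.49%), 12 with array weights (27.8%), 2 with slide section as covariate (5.9%) and 2 without transfected array 1 (3.34%). All that passed were lower, and HOXB8 passed most often, under 7 of 16 alternatives.

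Each transfected array had HOX values below the controls. Relative to the mean of the 3 controls, the median over the 19 HOX genes was -0.67, -0.41 and -0.40 on transfected arrays 1 to 3, where the median over all genes was -0.03, -0.02 and -0.01. On those arrays 12, 14 and 15 of the 19 HOX genes lay below their lowest control, as did 39.7%, 39.2% and 33.1% of all genes. Control 1 also differed from the other 2 controls in the same direction. Its HOX median relative to the mean of controls 2 and 3 was -0.22, with 15 of 19 genes lower, where over all genes the median was -0.01 and 50.9% were lower. Against controls 2 and 3 alone the transfected arrays had HOX medians of -0.72, -0.52 and -0.46.

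HOX genes are short, and fold changes in these data moved with gene length. The median genomic span of the tested HOX genes was 3177 bases, against 29864 bases over all tested genes. Over 9790 genes the Spearman correlation of span with log2 fold change was 0.29, given as a description because genes share arrays. Among the shortest 2448 genes, 71.0% were lower in transfected cells, the median log2 fold change was -0.27 and groups did not overlap, as lower, in 28.4%. That range held 16 of the 19 HOX genes, which had a median of -0.40 and groups that did not overlap in 7. The 3 longer ones, in the middle of the range of spans, had a median of -0.77, where the genes of that range had -0.01. They were HOXC4 (-1.08), HOXC6 (-0.77) and HOXD3 (-0.27, with overlapping groups). HOXC4 and HOXC6 overlap each other in the RefSeq table. The part of length in the HOX values was not tested.

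**Figure D4:**
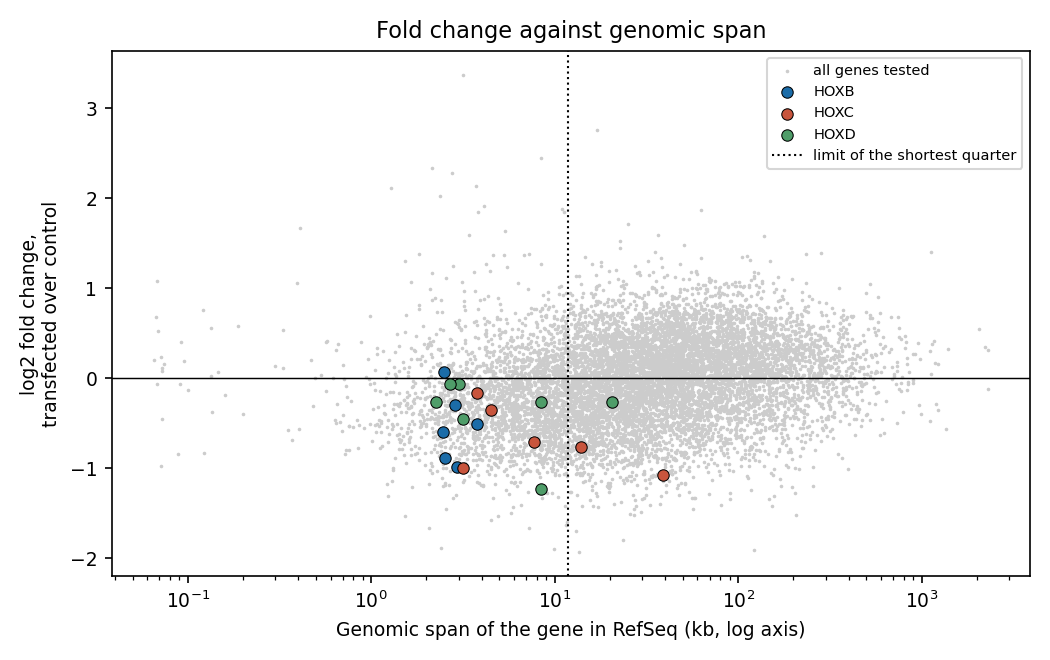
Each grey point is a tested gene, with its genomic span in kilobases on a log axis and its log2 fold change on the vertical axis; coloured points are the HOX genes by cluster. The dotted line bounds the shortest 2448 genes, where 16 of the 19 HOX genes lie.

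The cofactors with which HOX proteins bind DNA also had lower means, without passing the test. Of 9 PBX, MEIS and PKNOX genes 5 were tested, all with a lower mean, a median log2 fold change of -0.30 and groups that did not overlap, as lower, in 3; of all genes 52.1% were lower and 18.1% did not overlap as lower. PBX3 had 9.22, 9.30 and 9.36 on the controls and 8.87, 8.59 and 8.32 on the transfected arrays, with every transfected array below every control (log2 difference -0.70 ± 0.19 SE, adjusted p = 0.0764). PKNOX2, detected on 3 controls and 1 of the 3 transfected arrays, was at least 1.38-fold lower (adjusted p = 0.0986). The controls of PKNOX2 alone met the detection filter, which favours a lower mean on the transfected arrays. PBX2 had -0.30 ± 0.17. MEIS1, the partner of posterior HOX proteins in leukaemia, had -0.04 ± 0.17, and its groups overlapped.

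Genes that keep HOX genes on (MLL and trithorax) or off (Polycomb) went both ways. Of 25 MLL and trithorax genes 18 were tested, 10 with a higher and 8 with a lower mean and a median of 0.06. AFF4, a scaffold of the super elongation complex, had 0.60 ± 0.17, KDM6A, which removes the Polycomb mark, 0.74 ± 0.21, and SETD1A, a histone methyltransferase, -0.76 ± 0.24. Of 29 Polycomb genes 22 were tested, 13 higher and 9 lower with a median of 0.08. Their groups did not overlap in 6 as higher (14.7% of all genes) and in 2 as lower (18.1% of all genes). AEBP2 (0.92 ± 0.20), PCGF6 (0.96 ± 0.23) and CBX6 (-0.81 ± 0.21) had the smallest p. Genes of CTCF and cohesin, which partition the clusters into loops, mostly had higher means. Of 11 such genes 10 were tested and 9 had a higher mean, as did 4696 of all 9797 genes. Their median was 0.51 and groups did not overlap, as higher, in 5 (14.7% of all genes). PDS5B had 0.72 ± 0.21, RAD21 0.72 ± 0.24 and SMC3 0.55 ± 0.18. None of these genes passed the test, the lowest adjusted p being 0.0558 for AEBP2.

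Most tested genes of the retinoic acid pathway and the 2 tested upstream factors had lower means. In the retinoic acid pathway 13 of 20 genes were tested, and 12 had a lower mean, with a median of -0.38. Of all genes 52.1% were lower. Groups of the 13 did not overlap in 4 as lower (18.1% of all genes) and in 1 as higher (14.7% of all genes). RXRA, the partner of the retinoic acid receptors, had -0.97 ± 0.16 (adjusted p = 0.0502), while the nuclear corepressor NRIP1 had 0.71 ± 0.21. RXRB, detected on 2 of the 3 transfected arrays, was at least 1.71-fold lower. CDX2, a caudal factor that activates HOX genes, had 8.88, 9.36 and 9.01 on the controls and 7.96, 8.22 and 8.79 on the transfected arrays, with no overlap (-0.76 ± 0.25, adjusted p = 0.104). The other tested upstream factor, SALL4, had -0.12 ± 0.21, and none of these genes passed the test.

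The genes next to the clusters gave means on both sides of the controls. Of the 16 nearest protein-coding genes, 2 on each side of each cluster, 11 were tested, 7 lower and 4 higher with a median of -0.10. Of all genes 52.1% were lower. Groups of the 11 did not overlap in 1 as lower (18.1% of all genes) and in 1 as higher (14.7% of all genes). The 4 beside HOXC were all lower, with a median of -0.47, and SMUG1, a DNA repair glycosylase, had groups that did not overlap (-0.55 ± 0.16, adjusted p = 0.0834). The other 3 genes beside HOXC, ATP5MC2, CALCOCO1 and CBX5, had -0.49, -0.46 and -0.20. The difference from genes beside the other clusters was not tested. Beside HOXB, SNX11 had -0.25 and CALCOCO2 0.26, and beside HOXD, LNPK had 0.15 and MTX2 0.24, the last with all transfected arrays above the controls. Beside HOXA, SNX10 had 0.55, SKAP2 -0.10 and HIBADH -0.09. EVX1 and EVX2, the homeobox genes at the ends of HOXA and HOXD, were not detected on any array. HOTAIR, a long noncoding RNA from the HOXC cluster, was detected on 2 controls and 1 transfected array and had -0.51 ± 0.37. HOTTIP, from the HOXA cluster, and HOXC-AS1 were not detected.

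Most tested homeobox genes outside the clusters also had lower means. Of 108 listed, 53 were tested, 38 with a lower mean, a median log2 fold change of -0.27 and groups that did not overlap, as lower, in 16 (18.1% of all genes). Another 15 had a higher mean, 4 of them with groups that did not overlap, as higher (14.7% of all genes). The list includes the PBX, MEIS and PKNOX genes above, which supply 5 of the 38 and 3 of the 16. The difference from the HOX genes was not tested. SIX5 had 7.81, 7.96 and 7.77 on the controls and 6.77, 6.68 and 7.07 on the transfected arrays (-1.01 ± 0.18, adjusted p = 0.0502). NKX3-2, a regulator of cartilage, had -1.03 ± 0.23, and NKX2-1, the thyroid and lung factor, detected on 2 of the 3 transfected arrays, was at least 1.94-fold lower. Of 9 nearest relatives of the HOX genes 2 were tested and 6 were detected on no array. MNX1, a motor neuron factor detected on 3 controls and 1 transfected array, was at least 1.5-fold lower. MEOX1 was detected on 3 controls and no transfected array, and its groups overlapped. Of 16 genes of the kidney programme 5 were tested, 2 higher and 3 lower. EYA1, which acts with the paralogs numbered 11 in mouse kidney, and SIX4, a partner of EYA proteins, had 0.40 ± 0.26 and 0.49 ± 0.26. OSR1, an early kidney factor, was detected on all controls and no transfected array and was at least 1.4-fold lower. OSR1 and MEOX1 passed the detection filter through the controls alone, and the controls of MNX1 would also have sufficed. Passing in this way favours a lower mean on the transfected arrays.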

How the data were processed

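6 Illumina BeadChip arrays of 1 slide were analysed, 3 control and 3 transfected; sections A to C of the slide held controls and D to F transfected samples, so section and group cannot be fully told apart. Per the file headers, the deposited non-normalized table gives the mean intensity over beads, the bead number and its standard error, and a detection p-value per probe. BeadStudio is named in the submitters' processing notes, without a version. The other deposited table gives intensity as processed by the authors, linear, uncentred and with values below 0; each column was a straight line of the raw signal (Pearson r of at least 0.999997), with column medians of 9.47 to 15.5.

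With limma 3.58.1 in R 4.3.3, background was removed using the detection p, 16 was added, and quantile normalization and log2 followed. These log2 values were computed here from the deposited intensities. Of 48803 probes, 27578 had 1 gene, 13 several and 21212 were unnamed here; symbols were updated to RefSeq on GRCh38.p14. A probe was kept if 3 or more arrays detected it (p under 0.01), and the brightest kept probe stood for its gene, giving 9797 genes. Groups were compared with lmFit and eBayes, two-sided, with Benjamini-Hochberg adjustment over all genes and a threshold of 0.05. A fold for a signal not detected on every array of the dimmer group is given as a bound ("at least"). It is the brighter group's mean over that of the dimmer group, where each array counts at no less than its lowest detected signal. Log2 differences of such signals, as for HOXD11, HOXC11 and HOTAIR, include values that were not detected. Fits were tested on simulated data. Every HOX gene is named, with up to 3 genes of each other list by smallest p and the measured neighbours and antisense transcripts; MEIS1 was chosen after its values were seen. Members and lists were chosen with earlier results of these data known. The array number limits the precision.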

Additional observations from a re-analysis of the deposited data

How the results depend on the processing

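Under 16 alternatives, the number of HOX genes past the test, 0 as reported, was 4 without background correction (3.02% of all genes as lower), 1 after cyclic loess (1.77%), 3 with arrays scaled to equal medians (3.61%), 3 among genes detected on all 6 arrays (2.49%), 12 with array weights (27.8%) and 2 with slide section as covariate (5.9%); every HOX gene that passed was lower. It was 0 with the authors' processed values, without a detection filter, at a detection p under 0.05 and with the mean of the kept probes. Leaving out 1 array gave 0 to 7, with 7 without transfected array 3 (9.3% of all genes), 2 without transfected array 1 (3.34%) and 0 otherwise. HOXB8 passed under 7 alternatives, HOXC4 under 6 and HOXB5 under 4. The number of HOX genes with a higher mean, 1 of 19 as reported, was 0 with equal medians, 2 of 29 without a detection filter, 3 with array weights, 4 with slide section as covariate (HOXB1, HOXD1, HOXD8 and HOXD12) and 1 to 3 with 1 array left out. HOXD11 and HOXC11 could not be tested among genes detected on all arrays. HOX genes detected numbered 24 at a detection p under 0.05, 17 on all 6 arrays, 23 on at least 1 and 17 with every probe detected, against 19. The cause of these shifts was not tested. No paired analysis was possible because the labels give no replicate numbers. Dim genes such as HOXA2 and HOXB13 lie too near background for a fold.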
